A study of Mus musculus with 12 samples.

Results

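Cyp2b9, Cyp2b10 and Cyp2b13 are the cytochrome P450 enzymes of the 2b subfamily that mouse liver can transcribe, and they were described here with the receptors PXR (gene Nr1i2), CAR (Nr1i3) and RXRα (Rxra) and with the electron donor of microsomal P450s, P450 oxidoreductase (Por). The 7 genes were chosen by name, by a rule that uses no measured value but was set with earlier results of these data known, and all of them are among the 48526 genes of the deposited CPM table and among the 11968 genes of the deposited count table, so none was lost to the filter on low counts (over 1 CPM in at least 6 livers). The samples were 12 livers of C57BL/6J mice, an inbred laboratory strain with no added allele, which were young adults at the start of the diets by the study's methods. Females on chow, females on statin, males on chow and males on statin made up 4 groups of 3 livers, each liver from a different mouse. Diets were fed for 4 weeks. The statin was simvastatin, an inhibitor of HMG-CoA reductase, mixed into the same chow at 0.1 g/kg; the labels refer this dose to body weight and the study's methods to food weight. Whole liver RNA was sequenced after poly(A) selection, so a lower level could come from fewer cells of a type or from less RNA per cell, and these cannot be told apart.

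CAR and PXR are nuclear receptors that sense drugs, bile acids and other small molecules in hepatocytes. Each binds DNA as a heterodimer with RXRα, which it shares with many other receptors. Cyp2b10 is the classical gene induced through CAR in mouse liver, and the Cyp3a and Cyp2c enzymes, conjugating enzymes and transporters are induced by both receptors. CAR is held in the cytoplasm by a chaperone complex until it is released, so the amount of its mRNA does not measure its activity. Cyp2b9 and Cyp2b13 are known as enzymes of female mouse liver. Por passes electrons from NADPH to all microsomal P450s.

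The 3 Cyp2b genes lie in one cluster on chromosome 7, all on the plus strand (GRCm38, GENCODE annotation): Cyp2b10 (ENSMUSG00000030483) at chr7:25897620-25926624, Cyp2b13 (ENSMUSG00000040583) at chr7:26061497-26096197 and Cyp2b9 (ENSMUSG00000040660) at chr7:26173411-26210661. Nr1i2 is at chr16:38248323-38294824 on the minus strand, and Nr1i3, Rxra and Por are on the plus strand at chr1:171213970-171220701, chr2:27676440-27762957 and chr5:135670033-135735326. The remaining Cyp2b genes of the cluster gave almost no reads: Cyp2b19 had 0 in all 12 livers, Cyp2b23 had 6 reads in 3 livers, and the pseudogenes Cyp2b27-ps and Cyp2b26-ps had 15 and 1. At the depth of these libraries, 3 counts amounted to 0.0497 to 0.0651 CPM. This limit covers counting error alone.

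The promoters of the Cyp2b genes are shown because those of the female-biased pair are almost the same and that of Cyp2b10 is not. In the RefSeq sequence (GRCm38.p6) of the 250 bases before each start, Cyp2b9 and Cyp2b13 were 99.2% identical, and each was 71.0% identical to Cyp2b10. Capitals mark the sequence AGGTCA, the half-site bound by many nuclear receptors, and the 2 positions at which Cyp2b9 and Cyp2b13 differ. Counted from 1 at the first base printed, with the base of Cyp2b9 first, the differences are T48C and C104T. The sequences start at chr7:26173159 for Cyp2b9, chr7:26061245 for Cyp2b13 and chr7:25897408 for Cyp2b10, and the last is printed only to the start of the longer GENCODE gene (212 bases).
Cyp2b9: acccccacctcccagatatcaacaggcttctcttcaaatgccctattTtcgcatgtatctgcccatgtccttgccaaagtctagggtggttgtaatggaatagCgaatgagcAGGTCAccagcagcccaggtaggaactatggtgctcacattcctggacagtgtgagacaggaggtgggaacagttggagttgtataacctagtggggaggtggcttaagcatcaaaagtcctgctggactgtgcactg
Cyp2b13: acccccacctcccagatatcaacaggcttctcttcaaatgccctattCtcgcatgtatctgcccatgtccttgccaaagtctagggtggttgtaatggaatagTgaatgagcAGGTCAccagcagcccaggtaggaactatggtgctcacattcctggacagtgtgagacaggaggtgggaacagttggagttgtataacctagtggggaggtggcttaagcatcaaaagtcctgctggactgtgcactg
Cyp2b10: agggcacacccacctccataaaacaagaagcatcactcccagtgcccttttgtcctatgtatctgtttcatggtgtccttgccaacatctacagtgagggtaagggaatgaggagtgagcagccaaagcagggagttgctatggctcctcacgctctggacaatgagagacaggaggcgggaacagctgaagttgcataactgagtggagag

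AGGTCA stood 138 bases before the start in Cyp2b9 and in Cyp2b13 and was not found in the 250 bases of Cyp2b10; 14.0% of 32817 RefSeq promoter windows of this length held it on either strand. The other 6 motifs searched on both strands were found in none of the 3 windows. They were the half-site variant AGTTCA (in 11.9% of all windows), the STAT motif TTCNNNGAA (7.01%), the TATA box TATAAA (12.4%), the HNF4 motif CAAAGTCCA (0.384%), the HNF1 half-site GTTAAT (6.44%) and the C/EBP palindrome TTGCGCAA (0.165%). A match is only a run of letters, and its absence says nothing of a factor. Transcripts of the 3 genes were also alike: Cyp2b9 and Cyp2b13 shared 89.3% of aligned bases, and Cyp2b10 shared 84.8% with Cyp2b9 and 84.4% with Cyp2b13. Of all 50-base stretches of their transcripts, 11.2% in Cyp2b9, 27.3% in Cyp2b13 and 8.70% in Cyp2b10 also occurred in transcripts of another gene, against 0% in Nr1i2, Nr1i3, Rxra and Por. How reads in such stretches were assigned is not stated, and their part in the low Cyp2b counts of males was not tested.

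Total counts were between 46066381 and 60419223 per liver. Levels below are TMM-normalized CPM, which is counts scaled to the library total and by trimmed means, given for replicates 1, 2 and 3 with the mean ± SD. Defining hepatocyte genes (6 of 6 detected) summed to 71833 to 152894 CPM, against 3.0 to 9.9 CPM for 5 cholangiocyte genes and 0.3 to 2.0 CPM for 4 pancreatic genes.

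Cyp2b9 was the most abundant Cyp2b transcript of female liver. Its level was 339.8, 289 and 500.3 CPM in females on chow (376 ± 110.3, n = 3) and 415, 535 and 701 CPM in females on statin (551 ± 144, n = 3). Males had 2.04, 1.46 and 3.45 CPM on chow and 1.68, 3.02 and 2.39 CPM on statin. The lowest female liver was above the highest male liver, while the female chow and statin livers overlapped. The female mean was 162 times the male mean on chow and 233 times on statin.

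Cyp2b13 followed the same sex pattern at a lower level. It reached 57.5, 50.5 and 114 CPM in females on chow (74.0 ± 34.9, n = 3) and 53.0, 98.2 and 260.4 CPM in females on statin (137 ± 109, n = 3). Males had between 0.0939 and 0.174 CPM, which was 5 to 9 reads per liver, so the male levels rest on few reads. Replicate 3 of the female statin group stood above all other livers for this gene and also had the highest Cyp2b9, Nr1i2, Nr1i3 and Por.

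Cyp2b10, the CAR-induced gene, was low in every liver. Females had 11.9, 5.01 and 7.66 CPM on chow (8.18 ± 3.46, n = 3) and 3.39, 8.16 and 9.62 CPM on statin (7.06 ± 3.26, n = 3). Males had 4.67, 1.80 and 4.71 CPM on chow (3.73 ± 1.67, n = 3) and 2.60, 4.66 and 1.89 CPM on statin (3.05 ± 1.44, n = 3). The diets overlapped in both sexes, and the female livers lay above the male livers on chow but not on statin.

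**Figure D1:**
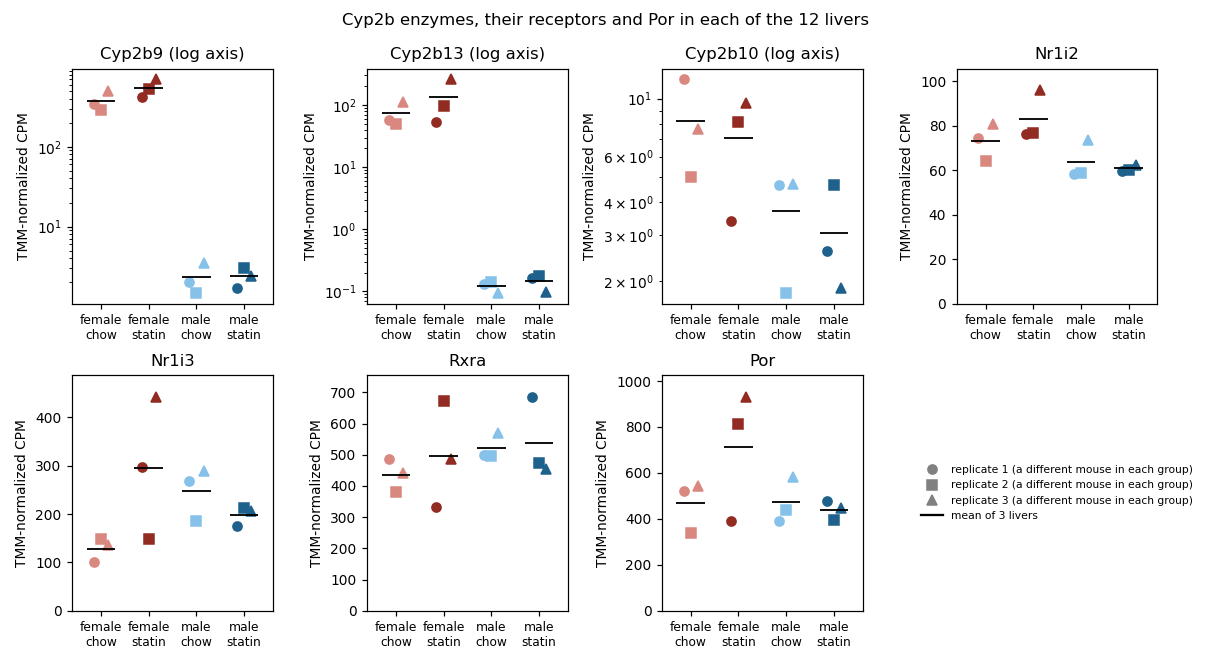
TMM-normalized CPM of each gene (vertical axis, logarithmic for the 3 Cyp2b genes) in the 4 groups, with 1 point per liver and a line at the mean of 3 livers. Cyp2b9 and Cyp2b13 separate the sexes completely on both diets, and Nr1i3 in females is between 101 and 147 CPM on chow and between 148 and 442 CPM on statin.

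Per kb of exon, the summed level of the 3 Cyp2b genes was 183 to 517 CPM per kb in the 6 females and 1.71 to 4.12 CPM per kb in the 6 males. Its make-up also differed. Cyp2b9 gave 72.3% to 88.1% of the sum in females, Cyp2b13 gave 11.3% to 26.9% and Cyp2b10 0.639% to 2.58%. In males Cyp2b10 gave 40.2% to 65.7%, Cyp2b9 32.2% to 57.4% and Cyp2b13 1.21% to 4.47%. On this scale the order of the means in females on chow was Cyp2b9 (201 CPM per kb), Por (116), Rxra (79.7), Cyp2b13 (39.5), Nr1i3 (29.0), Nr1i2 (28.6) and Cyp2b10 (3.87). Cyp2b13, Nr1i3 and Nr1i2 lay within their SDs of each other (18.6 CPM per kb for Cyp2b13). The scale divides by the merged exons of all annotated transcripts of a gene. These were 4414 bases in Nr1i3, 2553 in Nr1i2, 1876 in Cyp2b9 and 1875 in Cyp2b13. The order of the genes depends on these lengths, and no other length was tried. In males on chow the order was Por (117 CPM per kb), Rxra (95.5), Nr1i3 (56.2), Nr1i2 (24.9), Cyp2b10 (1.76), Cyp2b9 (1.24) and Cyp2b13 (0.0654), and both Por with Rxra and Cyp2b10 with Cyp2b9 were within their SDs.

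**Figure D2:**
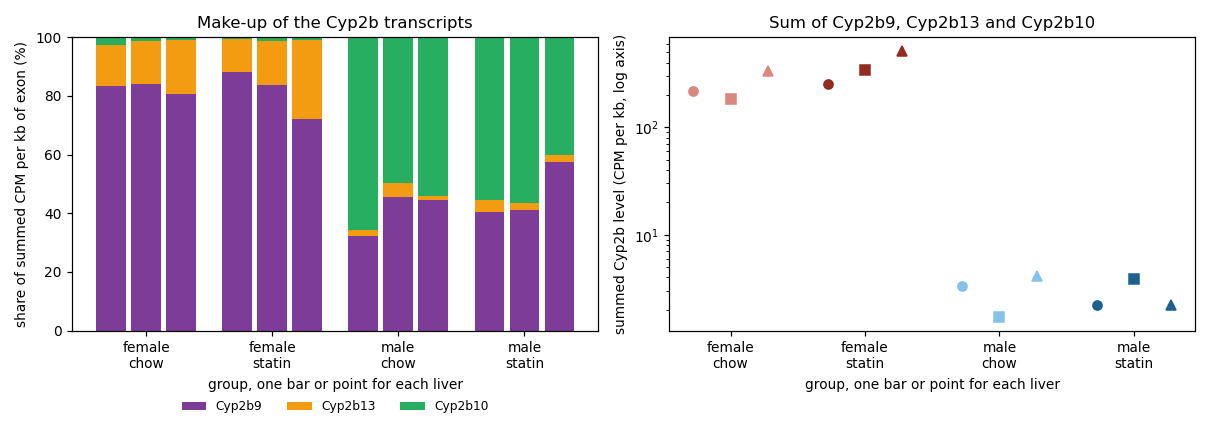
Left, share of each gene in the summed Cyp2b level per kb of exon (percent) for each of the 12 livers; right, that sum in CPM per kb on a logarithmic axis. Cyp2b10 takes at most 2.58% of the sum in any female liver and at least 40.2% in any male liver, where the sum does not exceed 4.12 CPM per kb.

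The receptors and Por were expressed in every liver of both sexes. Nr1i2, encoding PXR, varied least: 74.2, 64.3 and 80.9 CPM in females on chow, 76.2, 76.6 and 96.0 in females on statin, 58.3, 58.6 and 73.5 in males on chow, and 59.7, 60.3 and 62.5 in males on statin. Its highest liver was 1.65 times its lowest. Females on statin lay above males on statin, and the other comparisons overlapped.

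Nr1i3, encoding CAR, was 101, 147 and 135 CPM in females on chow (128 ± 24.2, n = 3) and 297, 148 and 442 CPM in females on statin (296 ± 147, n = 3). Males had 269, 186 and 289 CPM on chow (248 ± 54.8, n = 3) and 175, 212 and 205 CPM on statin (198 ± 19.7, n = 3). In females the highest chow liver and the lowest statin liver were at 147.5 and 147.7 CPM, and on the deposited CPM scale, which lacks the TMM factor, the groups overlapped. Females on chow were, by their mean, the lowest of the 4 groups and did not overlap with males on chow. Tomm40l, which overlaps Nr1i3 on the opposite strand, had 5.82 to 15.2 CPM. In females its mean was 13.1 CPM on chow and 9.42 CPM on statin. The labels describe strand-specific libraries, but the strand setting of the counting is not stated.

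Rxra, the shared partner, was 485, 381 and 440.1 CPM in females on chow, 333, 673 and 486 in females on statin, 499, 495 and 571 in males on chow, and 686, 472 and 453 in males on statin. Females on chow lay below males on chow, and the other groups overlapped. Por was 521, 339 and 545 CPM in females on chow (468 ± 112, n = 3) and 392, 811 and 931 in females on statin (712 ± 283, n = 3). In males Por was 392, 439 and 583 CPM on chow and 477, 393 and 449 on statin. Both diets overlapped in each sex.

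For the question whether statin changed these genes in females, none of the 7 passed an adjusted p of 0.05 (edgeR's quasi-likelihood test on the counts of all livers, Benjamini-Hochberg adjustment over 11968 genes). The background was 0.100% of all genes called, or 12 genes, of which 10 rose and 2 fell. Nr1i3 was the one member with an unadjusted p under 0.05, as 10.5% of all genes had: its fold change of statin against chow was 2.31 (log2 1.21, SE 0.32, 95% interval of the fold 1.43 to 3.74, adjusted p = 0.177). The adjusted p of Nr1i3 depended on the fit. Without replicate 2 of the female statin group it was 0.0221, with DESeq2 0.0114, and without the filter on low counts 0.0081.

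The other 6 genes had folds in females whose intervals all included 1. The fold was 1.52 for Por (0.985 to 2.35, adjusted p = 0.505), 1.46 for Cyp2b9 (0.917 to 2.33, adjusted p = 0.612) and 1.85 for Cyp2b13 (0.929 to 3.70, adjusted p = 0.550). Without replicate 3 of the female statin group the log2 fold change of Cyp2b13 was 0.05 in place of 0.89. Nr1i2 had 1.13 (0.921 to 1.40), Rxra 1.14 (0.800 to 1.63) and Cyp2b10 0.862 (0.425 to 1.75). The interval of Cyp2b13 takes in both no change and a doubling.

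In males none of the 7 genes passed the test, against a background of 0.00% of all genes, and 234 of 11968 genes had an unadjusted p under 0.05 (4 genes passed with DESeq2). None of the 7 had an unadjusted p under 0.05, as 1.96% of all genes did. Folds of statin against chow were 0.798 for Nr1i3 (0.497 to 1.28), 0.822 for Cyp2b10 (0.395 to 1.71), 0.933 for Por (0.606 to 1.44), 0.959 for Nr1i2 (0.778 to 1.18), 1.02 for Cyp2b9 (0.613 to 1.71), 1.03 for Rxra (0.722 to 1.47) and 1.17 for Cyp2b13 (0.233 to 5.88), each with an adjusted p of 1.00. The wide interval of Cyp2b13 goes with its 5 to 9 reads per male liver.

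The interaction of sex and statin asks whether the response differed between females and males. No member passed, against 0.00% of all genes, of which 959 had an unadjusted p under 0.05 (130 genes passed with DESeq2). Nr1i3 had a difference in log2 fold change, female minus male, of 1.54 (SE 0.45, adjusted p = 0.347), which was the one member with an unadjusted p under 0.05, as 8.01% of all genes had. With the filter on low counts left out its adjusted p was 0.0294. The differences of the others were 0.70 for Por (adjusted p = 0.785), 0.66 for Cyp2b13 (-0.18 without replicate 3 of the female statin group), 0.51 for Cyp2b9, 0.24 for Nr1i2, 0.15 for Rxra and 0.07 for Cyp2b10.

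**Figure D3:**
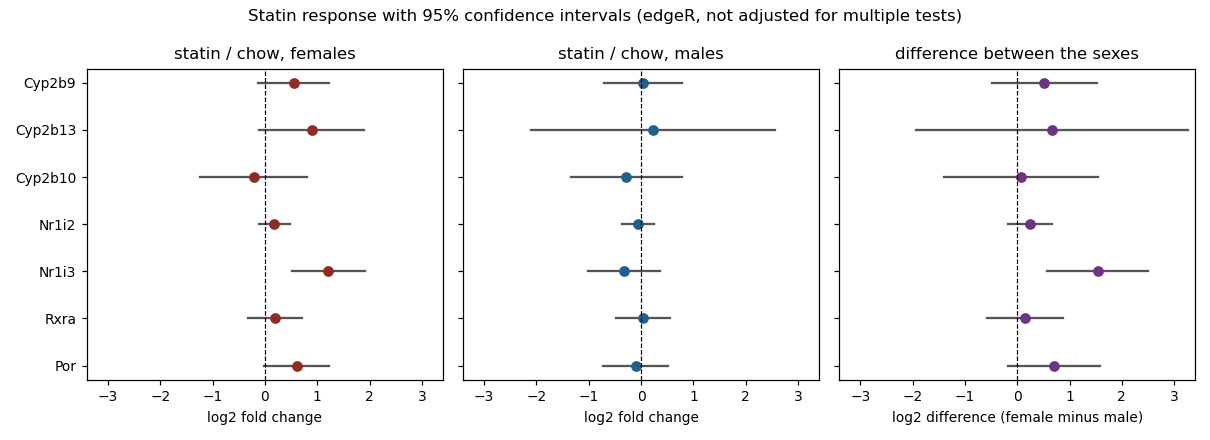
Log2 fold change of statin against chow in females (left) and in males (middle), and their difference (right, female minus male), with 95% intervals from edgeR that are not adjusted for multiple tests. Only the intervals of Nr1i3 in females and in the difference exclude 0, and neither passes the adjusted threshold.

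Between the sexes on chow, 2 of the 7 genes passed, Cyp2b9 and Cyp2b13, both higher in females, where 10.4% of all genes were called (713 higher and 537 lower in females). The log2 fold change was 7.35 for Cyp2b9 (SE 0.41, adjusted p = 2.5e-07) and 9.20 for Cyp2b13 (SE 0.73, adjusted p = 7.5e-06). Cyp2b13 was under 1 CPM in every male liver and passed the filter through the 6 females alone, so among the tested genes it had to differ between the sexes, and its 2 p-values are no support for that difference. Fitted without the filter its log2 value was 9.18 on chow and 9.83 on statin. Groups did not overlap for 5 of the 7, Cyp2b9, Cyp2b13, Cyp2b10, Nr1i3 and Rxra, against 37.7% of all genes. Cyp2b10 was higher in females by 1.14 on the log2 scale (SE 0.48, adjusted p = 0.161) and Nr1i3 lower, at -0.95 (SE 0.32, adjusted p = 0.0777). Neither of these 2 passed the test. Cyp2b10 passed without the filter on low counts (adjusted p = 0.0447), and Nr1i3 passed with DESeq2 (adjusted p = 0.0208), without the filter (0.00855) and with chow livers fitted alone (0.00984). It also passed without replicate 2 (0.0133) or replicate 3 (0.0352) of the female statin group. Rxra had -0.26, Nr1i2 0.20 and Por -0.01.

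On statin the same 2 genes passed, where 6.28% of all genes were called. Their log2 fold changes were 7.86 for Cyp2b9 (SE 0.42, adjusted p = 1.4e-07) and 9.86 for Cyp2b13 (SE 0.74, adjusted p = 4.3e-06). Without replicate 3 of the female statin group the value of Cyp2b13 was 9.01. Groups did not overlap for 3 of the 7, Cyp2b9, Cyp2b13 and Nr1i2, against 19.6% of all genes. Nr1i2 had 0.45 (adjusted p = 0.0821; 0.0349 with DESeq2), Por 0.69 (adjusted p = 0.199; 0.0242 without replicate 1 of the female statin group) and Cyp2b10 1.21 (adjusted p = 0.184; 0.0440 without the filter on low counts). Nr1i3 had 0.58 (adjusted p = 0.356), of the opposite sign to its value on chow. Comparisons that use the same livers are not independent of each other.

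Some cell type markers differed between these groups. The summed level of 6 pericentral hepatocyte genes, which mark the zone where many P450s are transcribed, was 5713 to 6799 CPM in females on chow, 7279 to 9487 in females on statin, 10553 to 12685 in males on chow and 9194 to 13400 in males on statin. Most of this sum and of its differences was 1 gene, the P450 Cyp2e1, with means of 3365 CPM in females on chow, 5534 in females on statin and 8642 in males on chow. Between the sexes on chow Cyp2e1 was the 1 gene of the 6 that passed (log2 -1.36, adjusted p = 0.00139), and the list's median log2 value was -0.03, with 3 of 6 positive. With statin in females none of the 6 passed; the median was 0.17, with Cyp2e1 at 0.72 and Axin2 and Rgn at -0.33 and -0.10. Kupffer cell genes (5) summed to 261 to 412 CPM in females and 138 to 205 in males, with 3 of the 5 called higher in females on chow and 4 on statin, where 10.4% and 6.28% of all genes were called. Stellate cell genes (5) summed on chow to 274 to 332 CPM in females and 178 to 193 in males, with 2 called higher in females, and on statin to 214 to 305 and 171 to 228, with none called. With statin in females all 5 stellate genes had log2 values below 0 (median -0.37) and none passed, and the sums of the diets overlapped. The part of these cells in the values of the 7 genes was not tested. On chow endothelial genes (5) summed to 225 to 245 CPM in females and 147 to 207 in males (1 called higher in females), erythroid genes (3) to 145 to 163 and 202 to 220 (1 called lower), and intestinal genes (3, of which 1 was tested and not called) to 44.1 to 52.9 and 62.0 to 115. Over all livers these lists reached 276, 241 and 115 CPM, and their sums overlapped between the diets in females. Periportal genes (6) summed to 2543 to 5047 CPM and overlapped between the sexes on chow and between the diets in females. On statin the sexes did not overlap, with 2987 to 3280 CPM in females and 3671 to 5047 in males. The hepatocyte genes (6) also did not overlap on statin, with 113317 to 152894 CPM in females and 77162 to 90128 in males. No gene of these 2 lists was called between the sexes on statin. Of the periportal genes Sds was called higher in females on chow (log2 1.09, adjusted p = 0.0348), and of the hepatocyte genes Apoa1 was called lower (log2 -0.81, adjusted p = 0.0136). B cell genes (3) summed to 1.1 to 2.0 CPM in females on chow and 2.8 to 4.1 in females on statin, and T cell, neutrophil and skin genes (3 each) to at most 4.5 CPM.

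Other genes that CAR or PXR are known to induce were read as a list of 45, of which 41 were tested. None passed with statin in females or in males, and their median log2 fold change was 0.20 in females and 0.01 in males, beside 0.01 and 0.00 over all genes. In females 15 of the 41 had an unadjusted p under 0.05, 11 above 0 and 4 below, beside 10.5% of all genes, 710 above and 546 below. In males 2 had, 1 on each side, beside 1.96%. Cyp2c54, a Cyp2c enzyme, had the smallest p: 29.9 CPM in females on chow and 96.9 on statin (log2 1.70, SE 0.34, adjusted p = 0.0968), with 303 and 280 CPM in males. Tsku, a secreted protein of liver, went from 22.2 to 54.9 CPM in females (log2 1.31, adjusted p = 0.153). The glutathione transferases Gstm2 (log2 -0.73, adjusted p = 0.312) and Gstm3 (log2 -0.99, adjusted p = 0.392) were on the other side of 0. In males Gstm3 had 1.04 and Cyp3a11, the classical PXR target, -0.60 (2602 CPM on chow and 1712 on statin), both with an adjusted p of 1.00. For the interaction none of the 41 passed; Cyp2c54 had 1.81 (adjusted p = 0.305) and Gstm3 -2.03 (adjusted p = 0.319).

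**Figure D4:**
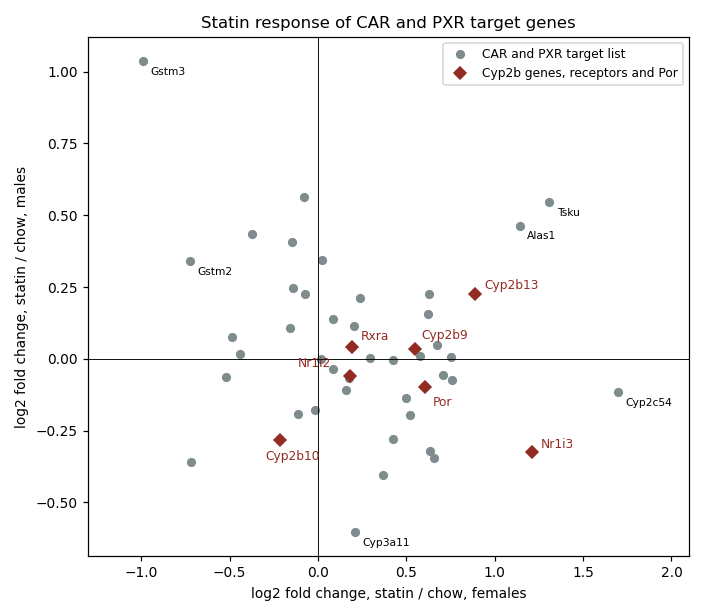
Log2 fold change of statin against chow in females (horizontal) and in males (vertical) for the 41 tested CAR and PXR target genes (grey) and the 7 genes described (red). Farthest to the right lie Cyp2c54 at 1.70, Tsku at 1.31, Nr1i3 at 1.21 and Alas1 at 1.14, with values in males of -0.12, 0.54, -0.33 and 0.46, and no gene shown passes the adjusted threshold in either sex.

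Between the sexes the target list went both ways. On chow 9 of the 41 were higher in females and 8 lower, where 10.4% of all genes were called, 713 higher and 537 lower. Sult2a1, a sulfotransferase, was 128 CPM in females and 0.317 in males (log2 8.64), and Abcc4, an efflux transporter, and Akr1b7, an aldo-keto reductase, were also higher (log2 1.75 and 3.12). Cyp2c54 (log2 -3.34), Cyp3a25 (-1.54), Gstp1 (-1.60) and Aldh1a1 (-1.49) were lower in females. On statin 6 were higher and 4 lower, where 6.28% of all genes were called. Slco1a4, an organic anion transporter, was among the higher genes (log2 1.75), and Gstp1 among the lower (-2.41). Sult2a1 and Akr1b7 were among the higher genes on both diets. In males they averaged 0.317 and 0.369 CPM on chow and 0.328 and 0.543 CPM on statin. Both passed the filter on low counts through the females, so their calls, and their part in the counts of higher genes, are no support for a sex difference.

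Of 15 coregulators and further RXRs, none passed with statin in either sex. Rxrg had 4.73 CPM in females on chow and 7.23 on statin (log2 0.61, adjusted p = 0.173). Nr0b2, encoding the repressor SHP, passed between the sexes: it was lower in females on chow (11.95 against 24.7 CPM, adjusted p = 0.0488) and on statin (7.78 against 33.7 CPM, adjusted p = 0.0017). That is 1 of 15 on each diet, beside 10.4% and 6.28% of all genes. Of 12 genes that hold CAR in the cytoplasm or release it, 11 were tested and none passed in any comparison. The chaperone gene Hsp90aa1 had 87.3 CPM in females on chow and 59.8 on statin (log2 -0.55, adjusted p = 0.174). Of 23 other RXR partners and liver transcription factors, 21 were tested and none passed with statin; Nr2f2 and Foxa1 were lower in females on chow (log2 -0.69 and -0.54) and Foxa1 also on statin (-0.66), which is 2 and 1 of 21 beside 10.4% and 6.28% of all genes.

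Besides Por, 8 genes of electron transfer to P450s were tested and none passed in any comparison. Cyb5a, encoding cytochrome b5, had 567 CPM in females on chow and 796 on statin (log2 0.49, adjusted p = 0.456). Of 8 genes that make or break down heme, the P450 cofactor, none passed with statin. Alas1, the rate-limiting enzyme, had 246 CPM in females on chow and 542 on statin (log2 1.14, adjusted p = 0.219), and Cpox had 92.4 and 172 CPM (log2 0.90, adjusted p = 0.126). Cpox and Fech were lower in females than in males on chow (log2 -0.83 and -0.41). That is 2 of 8, beside 10.4% of all genes, and none of the 8 was called between the sexes on statin.

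Of 17 genes known as female-biased in liver, 16 were higher in females on chow and 17 on statin, where 10.4% and 6.28% of all genes were called in either direction. Of 13 male-biased genes 12 were tested, and 12 were lower in females on both diets. Genes such as Cyp3a41a, at 191 CPM in females and 0.314 CPM in males on chow, passed the filter through 1 sex, so these counts are no support for a sex bias. Cyp2a4, the neighbour of Cyp2b9 on chromosome 7, had 1979 ± 387 CPM in females and 3.84 ± 0.48 in males on chow (n = 3 each), a log2 difference of 9.01. Cyp3a16, a female-specific P450, was the 1 gene of these lists that rose with statin in females, from 56.6 to 196 CPM (log2 1.79, SE 0.28, adjusted p = 0.0382). This call was lost with females fitted alone and without female chow replicate 2, female statin replicate 3, any male chow liver, or male statin replicate 2 or 3, since each of these fits called 0 of all genes.

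The genes most like Cyp2b9 over the 12 livers, by Pearson correlation of log2(CPM + 1), were Sult2a2, Cyp3a41a, Sult2a1, Slc22a26 and Hao2. Sult2a1, Hao2, Slc22a26 and Sult2a2 were among those most like Cyp2b13. The livers fall into 2 clusters by sex for these genes, so the coefficient over all livers is not given. After removal of the 4 group means, the genes nearest to Cyp2b13 were Prlr (r = 0.947), Ak3, Igf1, Dpys and Cry1, and those nearest to Nr1i3 were Mir22hg (r = 0.972), Fubp1 and Mug-ps1. Those nearest to Cyp2b9 were led by Zfp235 (0.918), to Cyp2b10 by Rnf185 (0.932), to Nr1i2 by Slc15a4 (0.948), to Rxra by Jup (0.990) and to Por by Atf6b (0.975). These coefficients are descriptions: both genes of a pair were read in the same 12 libraries with the same scaling, and the removal of 4 group means leaves fewer independent values than livers. Cyp2b13 hardly varied on this scale in males, at 0.0939 to 0.174 CPM, so its coefficients rest on the females.

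Among the 7 genes, 21 pairs were compared within each sex (n = 6 livers), 42 relations in all, with exact two-sided permutation tests. None passed an adjusted p of 0.05. The 6 livers pool both diets and were permuted across them, so a shift with diet shared by both genes counts as a relation. The 2 livers left out below are those farthest from the median of the gene named first. Cyp2b13 and Nr1i2 in females had the smallest p, with r = 0.904 (exact permutation p = 0.00278, adjusted 0.117) and rho = 0.943 (exact permutation p = 0.0167, adjusted 0.175), and r = 0.529 without the 2 livers farthest from the median. Cyp2b9 and Cyp2b13 in females had r = 0.916 (exact permutation p = 0.0111, adjusted 0.156) and rho = 0.886 (exact permutation p = 0.0333, adjusted 0.233), with r = 0.835 without those 2 livers. In males Cyp2b9 and Nr1i2 had r = 0.746 (exact permutation p = 0.0444, adjusted 0.255), with rho = 0.771 (exact permutation p = 0.103, adjusted 0.392) and r = 0.371 without the 2 farthest livers. With the diet means removed, r was 0.888 for Cyp2b13 and Nr1i2 in females and 0.941 for Cyp2b9 and Cyp2b13 in females. For Cyp2b9 and Nr1i2 in males it was 0.786.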

How the data were processed

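RNA of 12 livers was measured. Per the labels and the submitters' processing notes, reads were aligned to GRCm38 with STAR 2.4.1a and counted with HTSeq, and edgeR 3.28.1 was used; options and strand setting are not given in the sources used here. The authors deposited CPM values, computed before filtering, and a count table described as TMM-normalized. Its values are whole, and 0 of them differed from the reads behind the CPM (100% whole within 0.01). All 11968 genes exceed 1 CPM in 6 or more livers. The deposited counts were fitted with edgeR 4.0.16 (quasi-likelihood F test, two-sided, TMM, 4 groups in 1 fit, no covariate), with Benjamini-Hochberg adjustment over all genes and a threshold of 0.05. Alternatives were DESeq2 1.42.0, limma 3.58.1 with a trend, library size alone, upper-quartile scaling, no filter (26304 genes), a mean of at least 10 CPM, each sex or diet alone, a replicate block, and leaving out each liver.

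The members, gene lists and motifs were chosen with earlier results of these data known. From each list the genes past the threshold were named, at most 4 a direction by p, or else the 2 with the smallest p in each direction; not all are printed. Positions and overlaps are from GENCODE vM21, exon lengths are of merged exons, and promoters are from RefSeq. Depth was 46066381 to 60419223 counts per liver. Scripts were tested on simulated data. R 4.3.3, Python 3.11.15, pandas 2.3.3, scipy 1.17.1, numpy 2.4.6, biopython 1.88 and matplotlib 3.10.9 were used with seed 7.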

Additional observations from a re-analysis of the deposited data

How the results depend on the processing

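Outside the leave-one-out fits, 255 log2 values of the 7 genes kept their direction and their side of the threshold, and 9 passed the threshold where the reported value did not. Over the leave-one-out fits 394 kept both, 4 passed newly and 22 turned in direction. The number of the 7 genes called moved from 0 to 1 in females on statin against chow with DESeq2 and without the filter on low counts (Nr1i3), from 0 to 1 in the interaction without the filter (Nr1i3), and from 2 to 4 between the sexes on chow without the filter (Nr1i3 and Cyp2b10). It was 3 in place of 2 on chow with DESeq2 and with chow livers fitted alone (Nr1i3), and on statin with DESeq2 (Nr1i2) and without the filter (Cyp2b10). Direction turned for 4 log2 values near 0: Cyp2b10 in the interaction (-0.0056 with library size alone) and Por between the sexes on chow (0.036 with upper-quartile scaling, 0.038 with a mean of at least 10 CPM, 0.0042 with the replicate block).

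Leaving out each liver gave 0 to 1 called in females (1 without replicate 2 of the statin group), 0 to 0 in males and in the interaction, and 2 to 3 between the sexes on either diet. Ranges of log2 values that crossed 0 were, in females, -0.48 to 0.16 for Cyp2b10 and -0.092 to 0.42 for Rxra; in males, -0.21 to 0.44 for Cyp2b9, -0.12 to 0.057 for Nr1i2, -0.22 to 0.083 for Por and -0.17 to 0.15 for Rxra. In the interaction they were -0.21 to 0.51 for Cyp2b10, -0.18 to 1.11 for Cyp2b13 and -0.14 to 0.37 for Rxra. Between the sexes they were -0.14 to 0.17 for Por on chow and -0.41 to 0.11 for Rxra on statin. The cause was not tested.

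Over all genes, statin in females gave 12 calls, 270 with DESeq2, 148 without the filter, 8 with library size alone or upper-quartile scaling, 5 with a mean of at least 10 CPM, 0 in females alone and 0 to 75 without one liver (75 without replicate 2 and 62 without replicate 1 of the female statin group, and 2 or fewer without female chow replicate 1 or 2, female statin replicate 3, any male chow liver or any male statin liver). Males gave 0 and 4 with DESeq2, and the interaction 0, 130 with DESeq2, 103 without the filter and 0 to 14 without one liver. Female against male on chow gave 1250, 1946 with DESeq2, 2151 fitted alone, 771 with a mean of at least 10 CPM and 635 to 1586 without one liver, and on statin 751, 1284 with DESeq2, 292 fitted alone, 357 with a mean of at least 10 CPM and 378 to 743. Same-numbered livers are different mice, and their deviations from the group means had a mean correlation of -0.109 over 18 pairs (-0.741 to 0.669), so the numbers do not pair them. Pairs with unlike numbers had a mean of 0.0578, and replicate 2 of the female statin group with replicate 1 of the male statin group had 0.747. Single livers were thus alike or opposed across groups, and the reason was not tested. With the replicate block the calls were 5, 0, 0, 901 and 570 in the 5 comparisons, and the same numbers of the 7 genes were called, 0, 0, 0, 2 and 2. With 3 livers a group, the interval of each fold limits what can be told, most of all for Cyp2b13 in males.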
